A study of Mus musculus with 63 samples.

Results

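Neuro2a cells, a mouse neuroblastoma line, were compared with adult mouse brain across all 24990 rows of the expression tables. The members are 5 of the 63 samples of the series: 2 libraries described as the input of an RNA immunoprecipitation (RIP) from Neuro2a cells, and 3 libraries titled as wild-type (WT) brain. The cells carry no engineered allele or treatment in the labels and grew in medium with fetal bovine serum. For the RIP the cells were lysed, sonicated and cleared by centrifugation, and the step at which the input was taken is not given in the sources used here. The line came from ATCC and was not authenticated, and the labels do not say whether the 2 inputs came from separate cultures, so that the p-values measure only the spread between these libraries. The brains came from adult WT mice of a colony backcrossed to C57BL/6 Ola HSD, and their ages are given only as one range for all mice of the study. The inputs were made from total RNA after removal of ribosomal RNA (RiboCop) and the brains from poly(A) RNA (brains 1 and 2 with the SENSE mRNA kit, brain 3 with TruSeq). Library type and sample type therefore cannot be told apart, and only differences of at least 8-fold (log2 fold change of 3) are read as large. The total expected count, which is the number of reads that RSEM assigned to genes, was 13746554 and 16038165 in the inputs and 14124883, 13956040 and 33192002 in the brains.

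Neuroblastoma arises from the sympathoadrenal lineage of the neural crest, the embryonic cells that form sympathetic ganglia and the adrenal medulla. A small circuit of transcription factors, among them PHOX2A, HAND2 and the GATA factors, holds that identity and turns on the enzymes and transporters of catecholamine signalling. Adult brain, in contrast, is a mixture of neurons that no longer divide, myelinating oligodendrocytes, astrocytes, microglia and vessels. A gene can therefore be lower in the cell line because it is low in those cells, or because the cell type that makes it is absent from the culture. In bulk RNA, fewer cells of a type and less RNA per cell cannot be told apart. Levels are TPM, the share of transcripts scaled to a fixed total and corrected for transcript length, and are given for inputs 1 and 2 and then for brains 1, 2 and 3. Fold changes and adjusted p-values come from edgeR on the counts.

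Genes of several brain cell types were measured in both input libraries, although the labels name a cell line alone. *Mbp*, the main protein of myelin, was at 515 and 404 TPM in the inputs and at 4502, 5118 and 8974 TPM in the brains. *Ttr*, which the choroid plexus makes, was at 1956 and 1376 TPM in the inputs and at 1889, 1936 and 2954 TPM in the brains, so that its groups overlapped. *Csf1r*, a receptor of microglia, was at 14.3 and 11.2 TPM against 59.97, 53.6 and 68.2 TPM. Of all 24990 rows, 12917 were at 1 TPM or more in input 1 and 13227 in input 2. Of the 18 oligodendrocyte genes, 16 were at 1 TPM or more in both inputs and 16 were above every one of 6 WT embryonic fibroblast (mEF) libraries, set beside them as cultured cells. These 6, of the 12 WT mEF RNA-seq libraries, share pregnancies with the *Chaserr*+/- or *Chaserr*-/- mEFs, and the other WT mEFs were not used here. The summed level of the oligodendrocyte genes was 735 to 910 TPM in the inputs, 9766 to 15566 TPM in the brains and at most 117 TPM in the mEFs. Levels above every mEF library also held for 12 of 15 astrocyte genes (655 to 837 TPM in the inputs, at most 318 TPM in the mEFs). They held too for 18 of 20 genes of the glutamate postsynapse (1148 to 1411 TPM, at most 72.9 TPM) and 16 of 17 GABA genes (273 to 317 TPM, at most 29.8 TPM). For these neuronal genes fibroblasts do not show what a neuroblastoma line makes by itself. Microglial genes summed to 364 and 372 TPM in the inputs, to 878 to 1253 TPM in the brains and to as much as 983 TPM in the mEFs. Of these 17 genes, 13 were at 1 TPM or more in both inputs, but only 3 lay above every mEF library. *Csf1r* itself reached 25.4 TPM in the mEFs, above both inputs. The IgG control libraries of the same RIP, also labelled Neuro2a, lay above both inputs for all 18 oligodendrocyte genes and all 15 astrocyte genes, and summed to 3136 and 4278 TPM for the former. The shares of all rows above every mEF library, or higher in the IgG libraries than in both inputs, are not given here. Where the RNA of these brain cell genes came from was not tested, nor was its part in the results that follow.

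**Figure D1:**
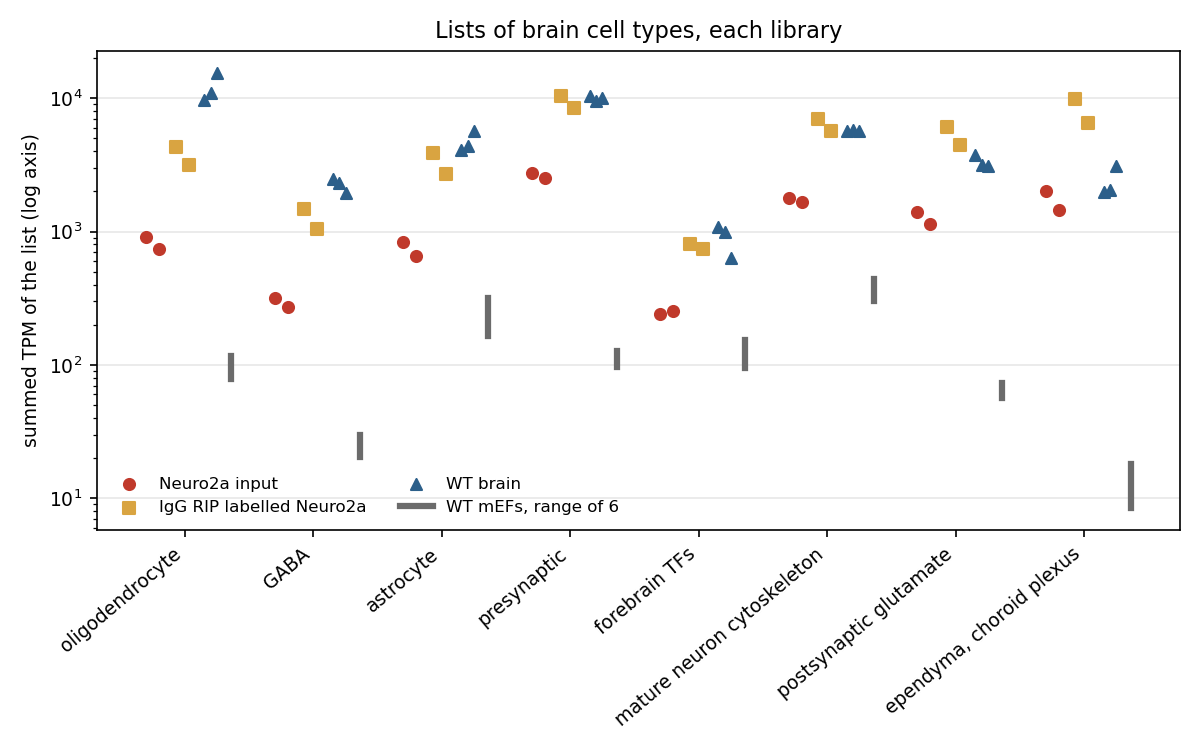
Summed TPM of 8 lists of brain cell type genes on a log axis, with each Neuro2a input and each IgG RIP library as a circle or square, each WT brain as a triangle and a bar for the range of 6 WT mEF libraries. The inputs lie below the brains for the oligodendrocyte list (735 and 910 TPM against 9766 to 15566 TPM) but above the highest mEF library, at 117 TPM.

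Of 15358 rows with enough counts to test, 9569 were called at an adjusted p under 0.05, which is 62.3% of them. Higher in the inputs were 29.9% of the rows tested and lower 32.4%. A large rise in the inputs was called for 1177 rows (7.66%) and a large fall for 1084 rows (7.06%). The median log2 fold change over all rows was -0.16. On the TPM scale the median row tested stood at 52.1% of its brain level, so that TPM values side by side make the inputs look lower than the scaled counts do. With library size alone as the scale, the median moved to -0.54 and the calls split into 3586 higher and 6087 lower, and with limma on log2(TPM + 1) the median was -0.78 and the split 2846 and 7380. With such shares of rows called, a count of members is read against these percentages. The share of rows tested whose groups did not overlap is not given here, so that no weight is put on a lack of overlap.

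**Figure D2:**
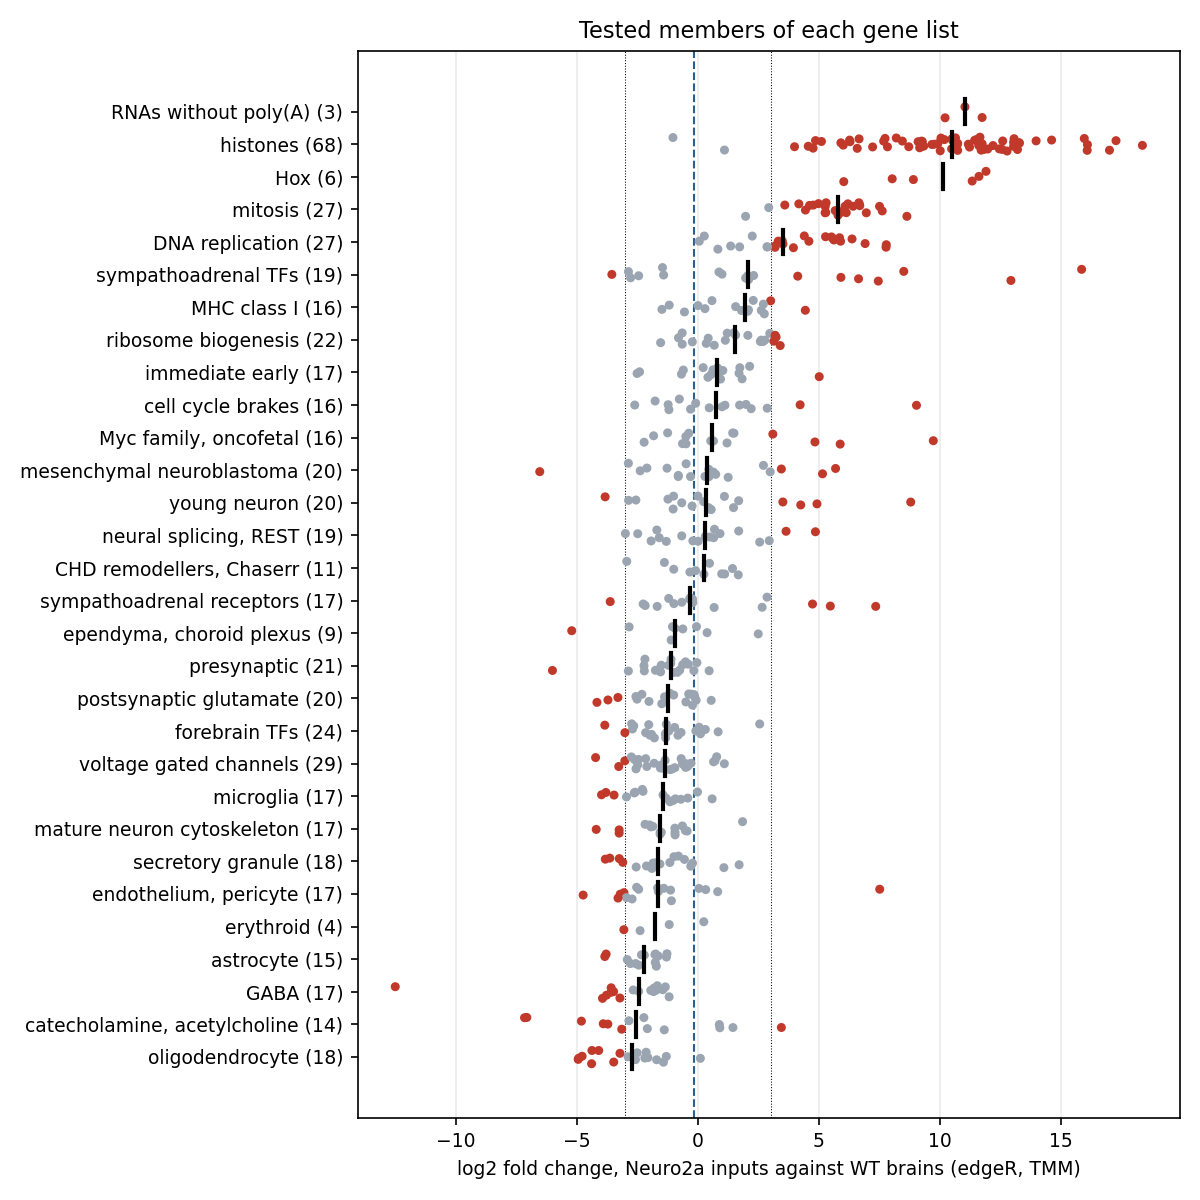
Log2 fold change of the Neuro2a inputs against WT brains for each tested member of 30 gene lists, with the number tested in brackets, red for members called at 8-fold or more, a black bar for the list's median and a dashed line for the median of all rows (-0.16). Mitosis and DNA replication genes, of which every listed row was tested, lie to the right (medians of 5.79 and 3.51), and oligodendrocyte genes lie farthest to the left (-2.73). The histone and *Hox* rows drawn are those that passed the count filter, which levels in the inputs alone can do.

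Several transcription factors of the sympathoadrenal lineage were high in the inputs and nearly absent from the brains. *Phox2a*, the homeodomain factor of noradrenergic neurons (mm9 chr7:108966827-108971680), was at 379 and 382 TPM in the inputs and at 0.11, 0.21 and 0 TPM in the brains. *Hand2*, a bHLH factor of sympathetic neurons (mm9 chr8:59799780-59803314), was at 248 and 265 TPM in the inputs and had no count in any brain. *Gata2* was at 325 and 461 TPM against 4.81, 4.97 and 1.76 TPM. These 3 genes had large rises. *Gata2* rose by 7.45 ± 0.52 on the log2 scale (SE, adjusted p = 3.0e-05) and *Phox2a* by 12.93 ± 0.59 (adjusted p = 9.5e-06). For *Hand2* the share of counts was at least 6721-fold higher, taking 3 counts over the 3 brains as the floor. Of the 20 listed factors, 19 were tested, 12 were called higher, 5 lower and 7 had a large rise. Their median log2 fold change was 2.06 beside -0.16 over all rows. Of all rows tested 29.9% were called higher, 32.4% lower and 7.66% had a large rise. *Sox4* was at 91.2 and 155 TPM against 14.1, 10.8 and 10.8 TPM, and *Tbx2* at 33.8 and 38.6 TPM against 1.65, 1.05 and 0.53 TPM, both of them large rises.

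Not every factor of the circuit was high. *Gata3* was at 1.72 and 2.38 TPM against 2.45, 2.18 and 1.13 TPM, with overlapping groups and no call (adjusted p = 0.14). *Isl1* (7.65 and 16.2 TPM) and *Insm1* (9.44 and 12.3 TPM) were higher than in the brains by less than 8-fold. *Lmo1*, a neuroblastoma risk gene that encodes a LIM-only cofactor, was at 107 and 77.6 TPM against 42.3, 31.8 and 36.9 TPM, whereas its relative *Lmo3* was lower, at 5.84 and 5.16 TPM against 69.9, 64.0 and 62.7 TPM. *Tfap2b* was the only listed factor with a large fall (none without brain 2, and 2 without brain 3), at 0.02 and 0.24 TPM against 1.45, 6.15 and 1.73 TPM (adjusted p = 0.015, and 0.10 without input 1).

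**Figure D3:**
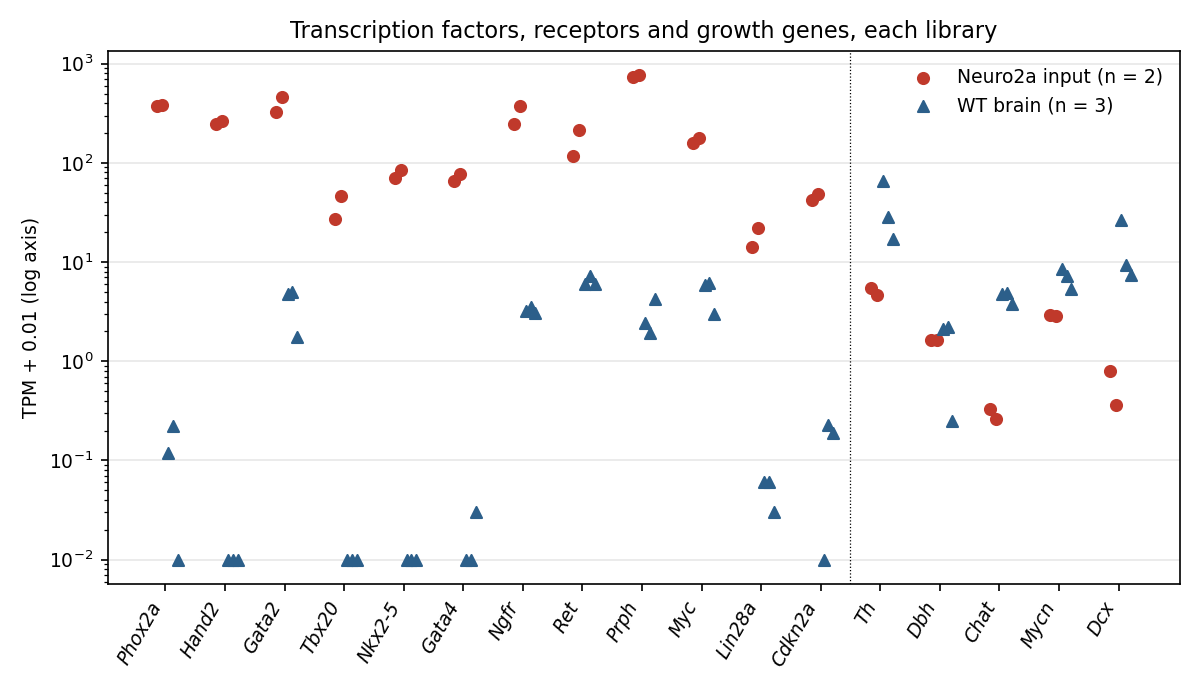
TPM of 17 genes in each library on a log axis, with 0.01 added so that a TPM of 0 can be drawn, circles for the 2 Neuro2a inputs and triangles for the 3 WT brains. Left of the dotted line are genes with a large rise, such as *Phox2a* (379 and 382 TPM against at most 0.21 TPM), and right of it are further lineage and growth genes, of which *Th*, *Chat*, *Mycn* and *Dcx* lie below the brains.

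The 12 rows with the largest rises, leaving out RNAs without a poly(A) tail, were *Hand2*, *Sohlh2*, *Tbx20*, *Nkx2-5*, *Nlrp4c*, *Cyp2c55*, *Gata4*, *Phox2a*, *Dkk1*, *Usp44*, *Hoxc9* and *Hoxc6*. *Tbx20*, *Nkx2-5* and *Gata4*, like *Hand2*, are best known as transcription factors of the developing heart. *Tbx20* was at 26.9 and 46.8 TPM and *Nkx2-5* at 69.6 and 84.6 TPM in the inputs, and neither had a count in any brain. *Gata4* was at 66.4 and 77.8 TPM against 0, 0 and 0.02 TPM. *Sohlh2*, a bHLH factor of germ cells, was at 77.9 and 109 TPM, and *Nlrp4c*, a gene known from oocytes, at 17.6 and 30.8 TPM, both with no count in the brains. *Dkk1*, a secreted inhibitor of Wnt signalling, was at 138 and 178 TPM against at most 0.08 TPM. In the WT mEFs the highest levels of *Hand2*, *Hoxc9* and *Hoxc6* were 24.3, 11.7 and 61.7 TPM, while the other members of these 12 reached no more than 4.49 TPM (*Gata4*), with *Sohlh2* at 0.07 TPM and *Nlrp4c* at 0. *Cyp2c55*, a cytochrome P450, was at 36.6 and 53.8 TPM and *Usp44*, a deubiquitinase, at 10.3 and 20.4 TPM, again with 0 in every brain.

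*Hox* genes record position along the body axis and are silent in forebrain. Of 39 *Hox* rows 6 had enough counts to test, all of the *HoxC* cluster. They passed the count filter through the inputs, so that they had to differ, and their values are a description. They lie in one stretch of mm9 chr15:102797227-102867274. *Hoxc9* was at 18.7 and 26.0 TPM, *Hoxc6* at 14.5 and 25.8 TPM and *Hoxc10* at 12.6 and 14.1 TPM, with no count in the brains. *Hoxc4* (1.23 and 4.10 TPM), *Hoxc5* (0.50 and 3.09 TPM) and *Hoxc8* (0.48 and 1.75 TPM), which lie between or beyond them, were lower. Of the 30 rows of the other 3 clusters, 21 were at 0 in both inputs and the highest stood at 0.60 TPM. The *Hoxc4* call was lost when *Chaserr*+/- brains took the place of the WT brains (adjusted p = 0.28).

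Receptors of the lineage split by gene, with calls in shares near those over all rows (29.9% higher and 32.4% lower). *Ngfr*, the low-affinity receptor for neurotrophins, was at 249 and 371 TPM in the inputs and at 3.18, 3.49 and 3.05 TPM in the brains. *Ret*, the signalling receptor for the GDNF family, was at 117 and 216 TPM against 6.01, 7.23 and 5.97 TPM. Both were large rises. Of 17 receptors tested, 3 had a large rise (5 without input 1), 6 were called higher and 6 lower (median log2 fold change of -0.32). *Alk*, a receptor kinase that is mutated in some neuroblastomas, was at 7.83 and 14.5 TPM against 2.89, 2.62 and 2.27 TPM (log2 fold change of 2.86 ± 0.30), and the nicotinic subunit *Chrna3* at 7.42 and 15.8 TPM against 4.31, 2.76 and 2.19 TPM. *Ntrk2*, the receptor for BDNF in brain, went the other way, at 31.6 and 24.5 TPM against 256, 224 and 213 TPM. The GDNF co-receptors *Gfra1* (11.1 and 16.1 TPM) and *Gfra4* (33.8 and 28.1 TPM) were not called, and *Chrna5* was nearly absent, at 0 and 0.17 TPM against 1.93, 0.96 and 2.52 TPM (adjusted p = 0.013, and 0.054 without input 1).

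The enzymes and transporters of catecholamines and acetylcholine did not follow *Phox2a*. *Th*, the rate-limiting enzyme of catecholamine synthesis, was at 5.49 and 4.68 TPM in the inputs and at 65.9, 28.8 and 17.2 TPM in the brains. It was called lower (log2 fold change of -2.09 ± 0.60, adjusted p = 0.017), and the call was lost without either input (adjusted p = 0.090 and 0.16). *Dbh*, which turns dopamine into noradrenaline, was at 1.61 and 1.61 TPM against 2.12, 2.18 and 0.24 TPM, and was not called. *Ddc* was at 1.61 and 1.04 TPM against 12.7, 12.4 and 25.6 TPM. *Chat*, the acetylcholine-synthesising enzyme, was at 0.32 and 0.25 TPM against 4.76, 4.83 and 3.75 TPM, a large fall. Large falls were also called for *Slc6a3*, the dopamine transporter of midbrain neurons (0.10 and 0 TPM against 11.2, 11.2 and 16.7 TPM), and for the amine-degrading *Maoa* (0.33 and 0.51 TPM against 14.1, 14.7 and 30.6 TPM) and *Maob*. *Gch1*, which makes the cofactor of *Th*, had the only large rise (none was left without input 1, and 2 were called without input 2), at 14.6 and 9.32 TPM against 1.79, 2.19 and 1.82 TPM. Of 14 tested genes, 3 were called higher and 10 lower, with 6 large falls and a median log2 fold change of -2.54. The shares over all rows tested were 29.9% higher, 32.4% lower and 7.06% with a large fall.

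Markers of young neurons were mixed, with calls in shares near those over all rows (29.9% higher and 32.4% lower). *Prph*, the intermediate filament of peripheral neurons, was at 732 and 770 TPM in the inputs and at 2.40, 1.90 and 4.21 TPM in the brains (log2 fold change of 8.79 ± 0.40, adjusted p = 9.5e-06). *Cd24a* (294 and 510 TPM against at most 30.3 TPM), *Dpysl3* (256 and 471 TPM against 30.8 to 35.9 TPM) and *Nes*, the filament of neural progenitors (4.68 and 19.4 TPM against 1.15 to 2.70 TPM), also had large rises. *Tubb3*, the neuronal tubulin, was at 683 and 751 TPM against 412, 384 and 542 TPM and was called higher by less than 8-fold. *Dcx*, the microtubule protein of migrating neurons, was at 0.79 and 0.35 TPM against 26.5, 9.44 and 7.43 TPM, a large fall that was no longer called without input 2 (adjusted p = 0.052). *Stmn2* was at 42.8 and 36.6 TPM against 311, 350 and 572 TPM and was called lower (log2 fold change of -2.56). Of 20 genes tested, 7 were called higher, 6 lower and 7 neither, and the median was 0.34.

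Genes of mature neurons were lower as groups, though few fell by 8-fold. Beside the counts below, 32.4% of all rows tested were called lower, 29.9% higher and 7.06% had a large fall. Of 21 presynaptic genes tested, 14 were called lower, none higher and 1 had a large fall (2 without input 1). For the glutamate postsynapse these counts were 10 of 20, none and 3, for voltage-gated channels 18 of 29, 2 and 3 (6 large falls without input 1 and 1 without input 2), and for the mature neuronal cytoskeleton 13 of 17, 1 and 3. All 17 GABA genes were called lower and 7 of them by 8-fold or more. *Slc17a6*, the vesicular glutamate transporter of subcortical neurons, was at 0.57 and 0.35 TPM against 50.0, 49.5 and 55.4 TPM (log2 fold change of -6.01 ± 0.38, adjusted p = 2.2e-05). Its cortical counterpart *Slc17a7* was at 222 and 166 TPM against 605, 553 and 564 TPM, and its call at an adjusted p of 0.046 was lost under 6 alternatives, among them DESeq2 size factors (0.0757). *Camk2a*, the postsynaptic kinase of forebrain excitatory neurons, was at 710 and 524 TPM against 1350, 1079 and 982 TPM, was not called (log2 fold change of -0.07 ± 0.30) and reached 3390 and 2342 TPM in the IgG libraries. *Snap25* and *Syt1*, of the vesicle fusion machinery, were at 228 and 211 TPM and at 131 and 143 TPM in the inputs, against 1404 to 2280 TPM and 589 to 807 TPM in the brains. *Gad1*, which makes GABA, was at 41.9 and 33.2 TPM against 376, 292 and 279 TPM. *Rbfox3*, the NeuN antigen, was at 27.2 and 24.5 TPM against 192, 193 and 148 TPM. These genes were at 2.65 TPM or less in the mEFs except *Camk2a*, which reached 3.57 TPM.

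Neuropeptides and prohormone enzymes made up most of the falls in the secretory granule list. *Penk* was at 16.9 and 16.5 TPM against 373, 337 and 364 TPM and *Tac1* at 7.43 and 4.49 TPM against 156, 141 and 125 TPM, with *Pcsk1* and *Adcyap1* as the other large falls (2 of the list without input 2). *Chga*, a core protein of chromaffin granules, was at 151 and 268 TPM against 142, 160 and 202 TPM and was called higher (log2 fold change of 1.07), as was *Vgf*. In all 2 of 18 genes were called higher and 11 lower, with a median log2 fold change of -1.66, beside 29.9% and 32.4% over all rows tested. Among transcription factors of the forebrain, *Mef2c* (5.80 and 5.48 TPM against 161, 130 and 129 TPM) had one of 2 large falls (1 without input 2 or brain 1, and 5 without brain 3). The other, *Eomes*, spread from 0.74 to 6.40 TPM over the brains and lost its call without either input (adjusted p = 0.14 and 0.21).

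Mitosis genes were called higher in the inputs far more often than all rows tested (29.9%). All 27 mitosis genes were called higher in the inputs and 25 of them by 8-fold or more, with a median log2 fold change of 5.79. *Ube2c*, which works with the anaphase-promoting complex, was at 877 and 1080 TPM in the inputs and at 5.97, 4.54 and 2.58 TPM in the brains (log2 fold change of 8.63 ± 0.43, adjusted p = 1.2e-05). *Birc5*, or survivin, was at 153 and 193 TPM against 1.49, 1.59 and 2.59 TPM. The mitotic kinase gene *Plk1* was at 84.1 and 139 TPM against 0.98, 1.12 and 1.00 TPM, and *Cdc20*, the activator of the anaphase-promoting complex, at 89.5 and 120 TPM against 1.33, 1.13 and 1.73 TPM. *Cdk1* was at 59.8 and 74.4 TPM against 0.92, 0.74 and 1.62 TPM. *Mki67*, the Ki-67 antigen, was at 9.64 and 88.9 TPM against 1.36, 1.35 and 1.03 TPM, a gap of 9.22-fold between the inputs themselves. *Nek2* and *Nuf2* were the members called higher by less than 8-fold. Summed over the list, the inputs were at 1868 and 2625 TPM, the brains at 40.2 to 51.2 TPM and the 6 mEF libraries, also from dividing cells, at 1729 to 2502 TPM.

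Many genes of late cell cycle share promoter elements, the CCAAT box and the cell cycle genes homology region (CHR). The 250 bases before the start of the 4 mitosis genes with the highest TPM among those with a large rise are shown, from RefSeq on GRCm38.p6 (the mm9 gene positions above come from GENCODE vM1), with CCAAT or its reverse ATTGG and the CHR letters TTTGAA or TTCAAA in capitals. They lie at chr2:164769679-164769928 (plus strand), chr11:117848987-117849236 (plus strand), chr7:122159185-122159434 (plus strand) and chr4:118437344-118437593 (minus strand).
Ube2c: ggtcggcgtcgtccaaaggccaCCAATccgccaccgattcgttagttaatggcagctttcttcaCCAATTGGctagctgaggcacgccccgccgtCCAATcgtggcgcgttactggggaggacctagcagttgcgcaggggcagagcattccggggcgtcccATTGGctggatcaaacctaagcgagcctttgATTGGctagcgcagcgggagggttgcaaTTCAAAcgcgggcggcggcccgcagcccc
Birc5: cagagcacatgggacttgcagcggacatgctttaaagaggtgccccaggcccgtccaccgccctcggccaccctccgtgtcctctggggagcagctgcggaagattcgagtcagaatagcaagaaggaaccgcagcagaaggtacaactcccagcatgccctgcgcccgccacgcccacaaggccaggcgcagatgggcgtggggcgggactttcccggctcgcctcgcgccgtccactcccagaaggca
Plk1: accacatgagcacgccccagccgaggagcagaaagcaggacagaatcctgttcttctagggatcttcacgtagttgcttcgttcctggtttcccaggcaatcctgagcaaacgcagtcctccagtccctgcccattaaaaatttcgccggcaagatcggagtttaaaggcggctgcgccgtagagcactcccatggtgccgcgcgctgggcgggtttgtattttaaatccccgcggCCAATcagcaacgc
Cdc20: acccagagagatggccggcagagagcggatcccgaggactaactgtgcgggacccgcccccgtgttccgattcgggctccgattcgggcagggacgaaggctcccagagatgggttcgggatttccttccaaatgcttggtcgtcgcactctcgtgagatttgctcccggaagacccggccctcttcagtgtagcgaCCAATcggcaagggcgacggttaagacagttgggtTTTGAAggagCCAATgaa
The *Ube2c* window held 6 CCAAT matches on the 2 strands, one pair of which overlaps, and 1 CHR match close to the start. *Cdc20* held 2 and 1, *Plk1* held 1 CCAAT match and no CHR match, and *Birc5* held neither. A window was found for 22 of the 27 mitosis genes. Of these 81.8% held CCAAT and 31.8% CHR, beside 34.5% and 16.3% of all 27025 genes with a window. A match is a run of letters and not a measured site, and other spellings of these elements were not searched.

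DNA replication genes were higher in 25 of 27 cases, 19 of them by 8-fold or more, with a median log2 fold change of 3.51 and none lower. The shares over all rows tested were 29.9% higher and 7.66% with a large rise. *Gins2*, of the replicative helicase, was at 152 and 192 TPM against 3.46, 3.78 and 3.43 TPM. *Tk1*, the thymidine kinase of S phase, was at 112 and 115 TPM against 0.65, 0.65 and 1.19 TPM, and *Mcm2*, of the helicase ring, at 123 and 144 TPM against 3.30, 4.09 and 4.46 TPM. *Mcm7* was at 82.6 and 117 TPM against 9.24, 9.58 and 14.2 TPM. The members not called were *Rfc4* and *Pcna*, the sliding clamp, which stood at 67.1 and 68.8 TPM in the inputs and at 125, 115 and 96.9 TPM in the brains. The summed level was 1255 and 1594 TPM in the inputs, 238 to 246 TPM in the brains and 1296 to 1682 TPM in the mEFs.

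Histones could not be read the same way. The replication-dependent histone mRNAs end in a stem loop instead of a poly(A) tail, and 68 of 75 rows passed the count filter, which levels in the inputs alone can do. Their summed level was 128887 and 76517 TPM in the inputs and 682, 791 and 406 TPM in the brains. In the mEFs, dividing cells whose libraries were made from poly(A) RNA, it was only 454 to 748 TPM. *Rmrp* and *Rpph1*, the RNAs of RNase MRP and RNase P, which also lack a tail, were at 5875 and 6272 TPM and at 5167 and 3459 TPM in the inputs, against at most 15.9 and 2.38 TPM in the brains. *Terc*, the telomerase RNA, was at 78.2 and 73.7 TPM against 0. Library type and cell type cannot be told apart for any of these. Rows of single histone genes are also uncertain, since near-identical copies share reads. When all rows of this kind were left out before scaling, 1120 large rises and 1030 large falls were called.

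**Figure D4:**
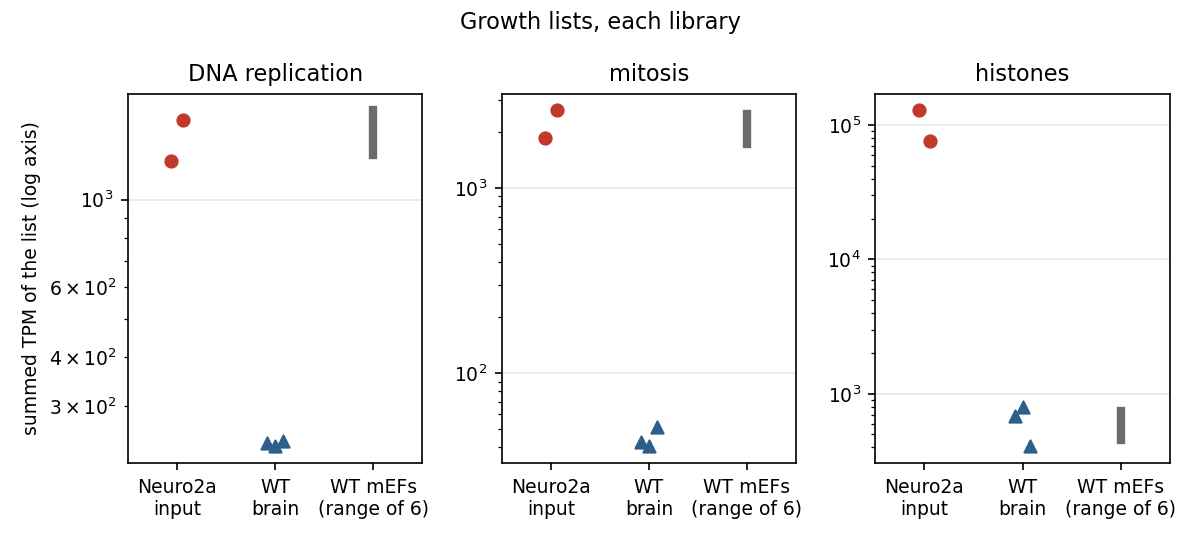
Summed TPM of the DNA replication, mitosis and histone lists on log axes, with circles for the 2 Neuro2a inputs, triangles for the 3 WT brains and a bar for the range of 6 WT mEF libraries. Mitosis genes sum to 1868 and 2625 TPM in the inputs and 1729 to 2502 TPM in the mEFs, whereas of these 3 groups only the inputs are high in histones (76517 and 128887 TPM).

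The Myc family was represented by *Myc* and not by *Mycn*. *Myc* (mm9 chr15:61816946-61821929) was at 161 and 180 TPM in the inputs and at 5.83, 6.19 and 3.02 TPM in the brains, a rise of 5.88 ± 0.38 on the log2 scale (adjusted p = 2.4e-05). *Mycn*, the gene amplified in many human neuroblastomas, was at 2.90 and 2.85 TPM against 8.49, 7.15 and 5.29 TPM and was not called on the counts (adjusted p = 0.28), although limma called it lower on both TPM scales. *Lin28a*, an RNA-binding protein of embryonic cells that blocks let-7, was at 14.1 and 22.3 TPM against 0.05, 0.05 and 0.02 TPM. Its relative *Lin28b* was at 1.04 and 4.13 TPM with overlapping groups, and its call (adjusted p = 0.038) was lost under 7 alternatives, among them leaving out input 2 (0.46). *Igf2bp1*, an oncofetal RNA-binding protein, stood at 0.03 and 0.01 TPM, too low to test. The joined row Hmga1b/Hmga1 of chromatin proteins was at 520 and 516 TPM against 97.4, 101 and 98.9 TPM. *Tert*, the catalytic subunit of telomerase, was at 9.59 and 15.2 TPM against 0.67, 0.85 and 0.69 TPM. Of 16 genes tested, 5 were called higher, 3 lower and 4 had a large rise (median log2 fold change of 0.59). The shares over all rows tested were 29.9%, 32.4% and 7.66%.

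Of the 22 genes of ribosome biogenesis, which Myc proteins are known to drive, 14 were called higher and 1 lower, with a median of 1.52. *Bop1* (207 and 207 TPM against 29.7, 28.6 and 44.0 TPM), *Fbl*, *Srm* and *Cad* had large rises, none of which reached 8-fold with limma on log2(TPM + 1). *Cdkn2a*, the locus of p16Ink4a and p19Arf, whose products one row cannot separate, was at 42.7 and 48.6 TPM against 0, 0.22 and 0.18 TPM. *Trp53* was at 287 and 305 TPM against 32.3, 29.4 and 19.8 TPM (log2 fold change of 4.22 ± 0.30, adjusted p = 3.5e-05). These were the 2 large rises among 16 brakes of the cell cycle tested, of which 7 were called higher and 5 lower. Over all rows tested 29.9% were called higher, 32.4% lower and 7.66% had a large rise. *Rb1*, the retinoblastoma gene, was among the lower ones, at 3.56 and 4.36 TPM against 28.3, 22.03 and 18.7 TPM.

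Regulators of neuronal splicing and of the REST repressor complex went both ways, with calls in shares near those over all rows (29.9% higher and 32.4% lower). *Ptbp1*, which represses neuronal exons, was at 520 and 603 TPM in the inputs and at 40.2, 35.7 and 24.1 TPM in the brains (log2 fold change of 4.86 ± 0.32). Its neuronal relative *Ptbp2* was lower, at 7.63 and 10.4 TPM against 38.8, 32.1 and 69.8 TPM (adjusted p = 0.0052, and 0.0598 without input 1 and 0.0508 without input 2). *Rest*, the repressor of neuronal genes, was at 3.76 and 12.54 TPM against 2.78, 2.23 and 1.84 TPM and its cofactor *Rcor2* at 59.5 and 73.5 TPM against 10.3, 8.63 and 8.63 TPM. Of 19 genes tested, 6 were called higher and 6 lower.

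Among genes that mark the mesenchymal state of neuroblastoma, *Vim* was at 1937 and 2220 TPM against 67.1, 88.8 and 50.3 TPM, *Fn1*, or fibronectin, at 185 and 590 TPM against 21.3, 17.6 and 15.7 TPM, and *Wwtr1*, or TAZ, at 62.5 and 85.6 TPM against 12.9, 11.6 and 10.2 TPM. The list as a whole did not move one way, with 6 of 20 genes called higher, 5 lower and a median of 0.37. These counts stand beside 29.9% called higher and 32.4% called lower over all rows tested. *Prrx1*, a defining factor of that state, was lower, at 0.40 and 0.72 TPM against 4.49, 4.39 and 5.57 TPM, and *Twist1* had no count in either input, against 1.15, 0.62 and 1.11 TPM. *Acta2*, the smooth muscle actin, was at 950 and 1188 TPM against 11.99, 13.2 and 4.8 TPM, while the other called members of the vessel list except *Pdgfrb* were lower, such as *Cldn5* at 2.38 and 2.79 TPM against 22.5, 23.3 and 31.3 TPM. The class I antigen gene *H2-K1* was at 208 and 358 TPM against 16.4, 20.6 and 29.0 TPM, *B2m*, its partner chain, at 639 and 845 TPM against 419, 444 and 202 TPM, and 9 of 16 genes of that pathway were called higher and none lower. *H2-K1* and the joined row H2-D1/LOC547349 hold near-identical copies, so that their split of reads is uncertain. Of 17 immediate early genes 6 were called higher and 2 lower, again beside 29.9% and 32.4% over all rows tested. *Ier2* (98.8 and 170 TPM against 6.33, 4.48 and 9.97 TPM) had the one large rise.

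Most glial genes fell, but none of those listed was at 0 in both inputs. Of 18 oligodendrocyte genes 17 were called lower and 8 by 8-fold or more, with a median log2 fold change of -2.73. The shares over all rows tested were 32.4% and 7.06%. *Mog*, a surface protein of myelin, was at 10.4 and 8.23 TPM against 243, 283 and 311 TPM and *Mal* at 8.14 and 6.50 TPM against 264, 348 and 562 TPM. All 15 astrocyte genes were called lower, with large falls (4 without input 1) for *S100b* and *Aqp4*, the water channel (2.57 and 2.75 TPM against 49.3, 46.3 and 107 TPM). *Gfap* was at 31.2 and 21.3 TPM against 103, 98.2 and 281 TPM, and its call (adjusted p = 0.017) was lost without either input (0.059 and 0.17). Of 17 microglial genes 13 were called lower and *Ctss*, *Gpr34* and *Ptprc* by 8-fold or more. Input 1 was higher than input 2 for 12 of 18 oligodendrocyte, 14 of 15 astrocyte and 13 of 17 microglial genes. On the TPM scale the oligodendrocyte list summed to 6.82% of its brain level, astrocytes to 15.8%, GABA genes to 13.1% and the glutamate postsynapse to 38.4%. Genes of red cells were split. The joined row Hbb-bs/Hbb-b1 of adult haemoglobin was at 138 and 123 TPM in the inputs and at 1236, 3161 and 1106 TPM in the brains. Its call (adjusted p = 0.0023) was lost without input 2. The joined row Hbb-bt/Hbb-b2 was called lower by less than 8-fold (log2 fold change of -2.39). *Hba-a1*, also of haemoglobin, was at 430 and 298 TPM in the inputs against 402, 873 and 284 TPM. Its groups overlapped and it was not called (adjusted p = 0.69), and neither was *Alas2* (adjusted p = 0.15).

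Several of the 12 largest falls were uneven among the brains. *Ppp1r17*, a gene of cerebellar Purkinje cells, had no count in the inputs and was at 1.87, 68.6 and 12.6 TPM in the brains, and *Cnpy1* was at 0 in the inputs and at 0.88, 23.3 and 7.07 TPM in the brains. *Gabra6*, the receptor subunit of cerebellar granule cells, was likewise at 0 in the inputs and in brain 1 but at 101 and 14.1 TPM in brains 2 and 3. *Pmch*, the melanin-concentrating hormone of the hypothalamus, was at 0.36 and 0.37 TPM against 59.2, 77.7 and 253 TPM. Without either input the calls for *Ppp1r17* (adjusted p = 0.090 and 0.10) and *Cnpy1* (0.0745 and 0.0877) were lost. *Cdr1* (342, 556 and 0.03 TPM) and *Klhl34* (53.4, 48.0 and 0.05 TPM) were high in the brains made with the SENSE kit and nearly absent from brain 3, made with TruSeq, and both were at 0 in the inputs. By share of counts they were at least 2029-fold and 262-fold lower, with 3 counts over the 2 inputs as the floor. Their calls were also lost without either input (adjusted p = 0.15 and 0.16 for *Cdr1*, 0.15 and 0.17 for *Klhl34*). Whether reads of *Cdr1* come from its antisense partner cannot be told here. Brain 3 also stood apart for other members. It was lower for *Dkk2* (16.2, 14.2 and 0.62 TPM) and *4930539J05Rik* (22.6, 21.2 and 3.93 TPM), and higher for *Gm14295* (18.4, 18.7 and 305 TPM). The remaining members were *Slc6a3*, *Gm11627*, *Gm17750* and *1700047M11Rik*.

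*Chd2*, the chromatin remodeller gene that the series is about (mm9 chr7:80571577-80686632), was at 3.34 and 5.43 TPM in the inputs and at 8.05, 8.09 and 11.9 TPM in the brains. The TPM groups did not overlap, yet the scaled counts were not called different (log2 fold change of -0.33 ± 0.28, adjusted p = 0.33), limma called it lower on both TPM scales (adjusted p = 0.032 for each), and the sign turned once the length trend was removed (0.01). *Chaserr*, the long noncoding RNA transcribed upstream of *Chd2*, was at 1.64 and 3.50 TPM against 30.0, 33.2 and 35.97 TPM. Its log2 fold change was -2.94 ± 0.41 (adjusted p = 6.0e-04), just under the 8-fold limit. Of the 11 rows of this list, *Chd1*, *Chd4*, *Chd7* and *Chd1l* were called higher and *Chd3*, *Chd5*, known from neurons, and *Chaserr* lower. Of all rows tested 29.9% were called higher and 32.4% lower. The TPM groups overlapped for each of the 4 members of the list called higher, with input 2 above input 1. *Chd4* was at 57.6 and 133 TPM in the inputs and at 56.9, 56.1 and 63.3 TPM in the brains.

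The 2 inputs differed from each other by transcript length. Over rows of 1000 to 2000 bases the median log2 ratio of input 1 to input 2 was -0.11, over 4000 to 6000 bases -0.50 and over more than 8000 bases -0.75. Between brains 1 and 2, made with one kit, the medians stayed between -0.04 and 0.15, whereas between brains 1 and 3, made with different kits, they ran from -0.30 over 1000 to 2000 bases to 0.34 over more than 8000 bases. Some long genes differed by far more than these medians, with *Mki67* 9.22-fold, *Cenpe* 6.33-fold and *Cenpf* 6.19-fold higher in input 2, and others did not, with *Cad* 1.18-fold higher and *Dcx* lower in input 2. With a length trend removed from each library, 1281 large rises and 918 large falls were called.

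**Figure D5:**
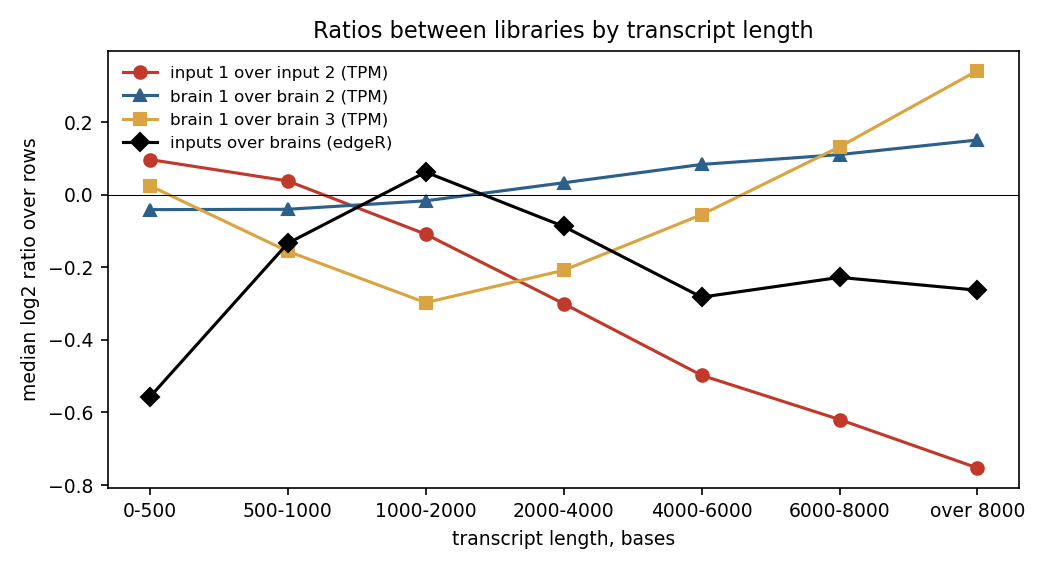
Median log2 ratio between libraries over rows grouped by transcript length in bases, for input 1 over input 2, brain 1 over brain 2 and brain 1 over brain 3 by TPM, and for inputs over brains by edgeR, with rows of RNAs without a poly(A) tail left out. The line of the inputs falls from 0.10 in the shortest group to -0.75 in the longest, brains 1 and 2 stay between -0.04 and 0.15, and brain 1 over brain 3 runs from -0.30 to 0.34.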

How the data were processed

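RNA-seq of 2 Neuro2a input libraries and 3 WT brains was used, with 6 WT mEF and 4 RIP libraries beside them for levels. The authors quantified genes with RSEM on RefSeq transcripts with a changed *Chaserr* end (the labels name mm9, and mm10 too for some libraries), 1 library per table, and deposited an expected count and a TPM for each of 24990 rows. Expected counts were rounded, kept by filterByExpr and scaled by TMM, and the groups were compared with edgeR's quasi-likelihood test (glmQLFit, glmQLFTest, edgeR 4.0.16, R 4.3.3) with no covariate. P-values were adjusted by Benjamini-Hochberg over all rows tested, with a call at 0.05 and a large difference where a call was also at least 8-fold. SE is the log2 fold change over the root of F. Alternatives used DESeq2 1.42.0 and limma 3.58.1. The test was also run on simulated data, and the outcome is not given here.

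Genes named were *Chd2*, *Chaserr*, fixed lineage genes, up to 4 large rises and 4 large falls per list by mean TPM, and the 12 largest rises and falls over all rows with a mean TPM of at least 10 in the higher group, no overlap and a poly(A) tail. Added after their values were seen were *Actb*, *Alas2*, *Cenpe*, *Cenpf*, *Chd1*, *Chd1l*, *Chd3*, *Chd4*, *Chd5*, *Chd7*, *Chga*, *Gabra6*, *Gfra1*, *Gfra4*, *Hba-a1*, Hbb-bt/Hbb-b2, *Hoxc5*, *Hoxc8*, *Lmo1*, *Lmo3*, *Nek2*, *Ntrk2*, *Nuf2*, *Pcna*, *Pdgfrb*, *Prrx1*, *Rb1*, *Rfc4*, *Rn45s*, *Tbx2*, *Ttr* and *Vgf*. The members and lists were chosen with earlier results of these data known. Replicate numbers of the titles do not pair cells with brains. The 3 *Chaserr*+/- brains entered one alternative, and other libraries of the series were not used here. Some genes that the rule names are not reported here.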

Additional observations from a re-analysis of the deposited data

Results flagged for a closer look

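Oligodendrocyte genes were measured in 4 RIP libraries labelled Neuro2a that the comparison does not use, above the highest of the 6 WT mEF libraries, whose summed level was 117 TPM. The summed TPM of the list was 4278 and 3136 in the IgG libraries and 2211 and 1929 in the libraries of the CHD2 antibody, against 910 and 735 TPM in the inputs.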

How the results depend on the processing

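The number of rows called stayed within 1.5 times of 9569 under all alternatives run (7183 to 10517). The counts of large differences did not. With at least 10 counts in every library there were 671 large rises and 412 large falls, since rows near 0 in one group are then not tested. With limma there were 470 and 656 on log2(TPM + 1) and 748 and 1907 on log2(TPM + 0.1), and with 4-fold in place of 8-fold 2208 and 2556. Leaving out one library gave 1161 to 1297 rises and 890 to 1382 falls. With library size alone 37.1% of the calls were higher in the inputs, against 47.9% with TMM, and with limma on log2(TPM + 1) 27.8%. With the replicate block 10292 rows were called, with 1198 large rises and 1118 large falls, and libraries that share a number did not deviate together (correlations of their deviations of -0.00012 for number 1 and -0.0452 for number 2). Among named genes the sign turned for *Chd2* (0.0054 with the length trend removed) and for *Camk2a* (0.26 with the length trend removed, and between -0.48 and 0.32 when one library was left out, positive without input 2 and, at 0.07, without brain 1), none of these called. Over the named genes that each alternative tested, 2322 values kept their direction and side of the threshold, 49 were no longer called, 11 became called and 4 changed sign. The setting of at least 10 counts in every library gave only 97 of these values, against 144 with DESeq2. Genes near 0 in one group are missing from it. What depth limits was not tested.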

Other observations

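*Rn45s*, the ribosomal RNA precursor, was at 3004 and 2333 TPM in the inputs, from which ribosomal RNA had been removed, at 35631 and 39162 TPM in the brains made with the SENSE kit and at 392.1 TPM in brain 3. *Actb* was at 13429 and 12723 TPM in the inputs against 1796, 1868 and 944 TPM.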
